A study of Mus musculus with 10 samples.

Results

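The 10 genes of insulin and insulin-like growth factor (IGF) signaling described here were measured in the embryonic day 15.5 mouse forebrain: the ligands Igf1 and Igf2, the receptors Igf1r, Insr and Igf2r, the receptor substrates Irs1 and Irs2, and the binding protein genes Igfbp2, Igfbp5 and Igfbpl1. They were chosen by name, and all 10 were found by their Entrez gene among the 21225 probe sets of the array. Each diet group held 5 wild-type embryos, 1 from each of 5 litters, carried by C57Bl/6J dams that had been mated to Ts1Cje sires. These sires carry a segmental trisomy that models Down syndrome, so the dams of both groups could also carry trisomic littermates, which were not measured. Dams of the reference group ate pelleted chow (Teklad 2918) and dams of the other group a purified powdered chow (Bioserv F3197), from mating onward. The sires were fed the diet of the dams they were paired with and did not cross between the groups. Of these, the powdered chow is the richer in carbohydrate and n-3 fatty acids and the poorer in vitamins and minerals, and it has no added isoflavones. Total RNA of each forebrain was hybridized to 1 Affymetrix Mouse Gene 1.0 ST array, and the values are log2 expression values normalized by the study, so that 1 unit is a doubling.

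IGF1 and IGF2 are secreted peptides related to insulin that promote growth and survival of neural progenitors and neurons. Both signal through the IGF1 receptor, a tyrosine kinase closely related to the insulin receptor, which itself binds insulin and, in its fetal isoform, IGF2. The activated receptors phosphorylate the substrates IRS1 and IRS2, which recruit PI3 kinase and thereby AKT, while SHC and GRB2 lead to RAS and the MAP kinases. The IGF2 receptor clears IGF2 from the cell surface without this signaling, and the IGF binding proteins hold the peptides in the extracellular space and set how much of them reaches the receptors. In most mouse tissues Igf2 is imprinted and expressed from the paternal allele, while Igf2r is expressed mostly from the maternal allele. This does not hold for every cell type of the brain, and the array values do not tell the alleles apart. In the fetal brain Igf2 is known to be made largely by the choroid plexus, the meninges and blood vessels.

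The start regions of the 4 genes on which the results turn are shown first, because they bring out how differently the genes of this family begin. RefSeq promoter windows (build GRCm38.p6) were matched for 8 of the 10 genes, with Insr and Igfbpl1 unmatched, and 250 bases before the start of transcription were read. Igfbp2 and Igfbp5 lie tail to tail on chromosome 1, with 5590 bases between their ends, Igf1r and Igf2 both lie on chromosome 7, and Igf2 has 4 annotated starts. For each gene the window with the most GC boxes is shown. Bases run 5′ to 3′ on the strand of the gene, and capitals mark the GC box GGGCGG or its complement CCGCCC, a sequence bound by SP1 family factors.
Igfbp2, chr1:72824230-72824479, plus strand: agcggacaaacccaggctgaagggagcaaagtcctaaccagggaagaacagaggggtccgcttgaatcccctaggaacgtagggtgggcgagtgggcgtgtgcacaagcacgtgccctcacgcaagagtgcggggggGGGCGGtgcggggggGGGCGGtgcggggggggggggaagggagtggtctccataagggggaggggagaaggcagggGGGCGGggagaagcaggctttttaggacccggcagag
Igfbp5, chr1:72874866-72875115, minus strand: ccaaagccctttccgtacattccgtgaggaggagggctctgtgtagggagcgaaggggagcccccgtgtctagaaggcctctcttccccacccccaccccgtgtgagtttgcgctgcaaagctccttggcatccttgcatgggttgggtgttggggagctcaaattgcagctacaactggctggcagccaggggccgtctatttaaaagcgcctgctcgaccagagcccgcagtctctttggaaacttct
Igf1r, chr7:67952007-67952256, plus strand: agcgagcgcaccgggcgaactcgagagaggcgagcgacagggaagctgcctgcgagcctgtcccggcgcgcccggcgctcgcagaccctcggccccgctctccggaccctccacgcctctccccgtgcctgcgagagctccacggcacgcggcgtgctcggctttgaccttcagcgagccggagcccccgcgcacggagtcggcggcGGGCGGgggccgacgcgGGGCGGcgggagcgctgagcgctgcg
Igf2, chr7:142657497-142657746, minus strand: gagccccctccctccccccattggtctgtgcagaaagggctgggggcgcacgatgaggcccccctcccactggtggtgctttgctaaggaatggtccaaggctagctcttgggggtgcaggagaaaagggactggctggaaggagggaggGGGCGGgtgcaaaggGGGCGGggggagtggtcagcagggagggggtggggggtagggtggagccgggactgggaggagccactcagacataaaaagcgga
The Igfbp2 window shown held 3 GC boxes and was 67.2% G and C. A further annotated Igfbp2 window, chr1:72825137-72825386, held 0 GC boxes and was 56.4% G and C. The window of the neighbor Igfbp5 held 0 GC boxes and was 58.8% G and C. The Igf1r window was richest among the 4, with 77.6% G and C, 42 CG pairs and 2 GC boxes, and the Igf2 window held 2 GC boxes but 6 CG pairs. The median over all 32851 mouse promoter windows of this length was 52.4% G and C and 6 CG pairs, and 32.7% of them held a GC box on either strand. Of 12 windows of the 8 matched genes, 7 held a GC box. The E box CACGTG, which reads the same on both strands, stood in 4 of them, those of Igfbp2, Irs1, Irs2 and Igf2r, against 6.02% of all windows. The FOXO sequence GTAAACA, searched on both strands, was in 0 of the 12 windows and in 3.17% of all. These are matches of letters, not measured binding. The array has 1 probe set per gene and cannot tell the 4 starts of Igf2 apart, nor those of Igfbp2.

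Igf2 was lower and Igf1r, Insr, Igfbp2 and Igfbpl1 were higher in the forebrains of powdered chow-exposed embryos. The difference of every probe set was tested with limma and adjusted by Benjamini-Hochberg across the whole array, and rose or fell is used here for an adjusted p under 0.05. By this measure 4 of the 10 genes rose, where 21.2% of all probe sets did, and 1 fell, where 21.8% did. Igf1, Igf2r, Irs1, Irs2 and Igfbp5 did not pass. The count of 5 called genes among 10 is near the 43.1% of all probe sets called in either direction. All 10 genes lie in the brighter part of the array. When probe sets under the median were left out, 66.7% of the 10613 that remained were called, and Igfbp5 passed as well. The study's methods set stricter limits, with the raw p below 0.001, its adjusted value below 0.01 and more than 1.5-fold change. They were met by 1 of the 10 genes, Igfbp2, which rose, where 8.27% of all probe sets met them and 4.84% did so upward. The values of the diets did not overlap for 4 of the 10 genes, against 32.6% of all probe sets. Powdered chow lay above for 3 of them, against 16.9%, and below for 1, against 15.7%. The median difference over the 10 genes was 0.06 on the log2 scale, against -0.0243 over all probe sets.

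**Figure D1:**
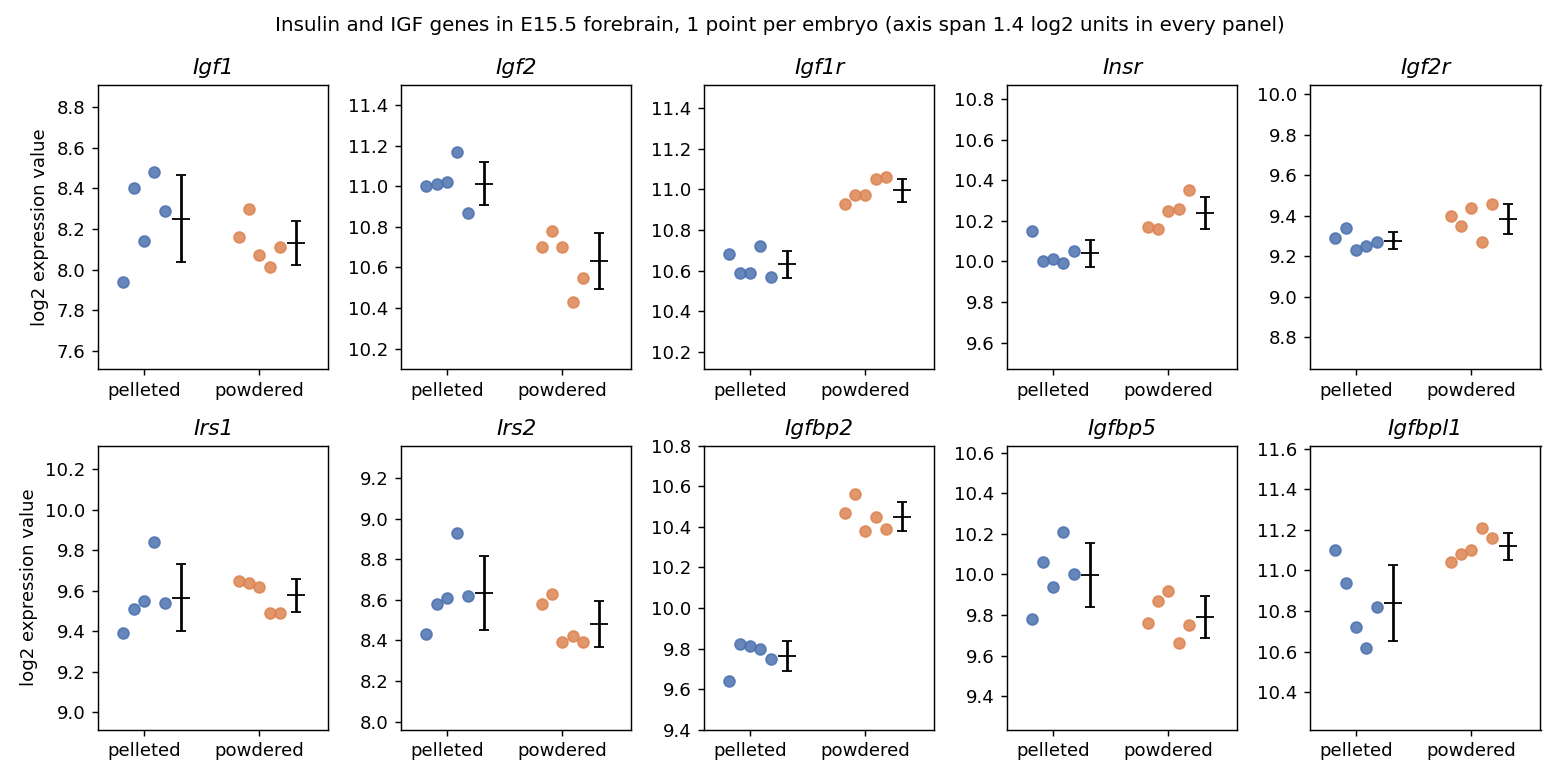
Log2 expression values (vertical axis, spanning 1.4 units in every panel) of the 10 genes in embryos of dams on pelleted (blue) and powdered chow (orange), 1 point per embryo, with the mean and SD of 5 embryos beside the points. The diets stand apart for Igf2, Igf1r, Insr and Igfbp2 and overlap for the other genes.

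Of the ligands, Igf2 fell and Igf1 did not pass the test. Igf2 (chr7:142650768-142666816, GRCm38.p6, as for the positions that follow) had log2 values of 11.00, 11.01, 11.02, 11.17 and 10.87 in pelleted chow replicates 05, 07, 09, 11 and 15. In powdered chow replicates 87, 88, 108, 111 and 115 it had 10.70, 10.78, 10.70, 10.43 and 10.55. All 5 powdered chow-exposed forebrains were thus below all 5 of the other diet, with the gap between replicates 15 and 88 being the narrowest. The mean went from 11.01 ± 0.11 to 10.63 ± 0.14 (SD, n = 5 each), a log2 difference of -0.38 or 1.30-fold lower (standard error 0.08, limma adjusted p = 0.00109). Igf1 (chr10:87858265-87937047) is also the mediator of growth hormone in the body. Its values were 7.94, 8.40, 8.14, 8.48 and 8.29 on pelleted chow and 8.16, 8.30, 8.07, 8.01 and 8.11 on powdered chow, in the same order of replicates. They overlapped, since pelleted chow replicate 05 was the lowest of all 10 and replicates 07 and 11 the highest. The difference of -0.12 had a 95% interval of -0.33 to 0.09 (limma adjusted p = 0.339). With 1 array left out it ran from -0.20 without pelleted chow replicate 05 (adjusted p = 0.0641) to -0.06 without pelleted chow replicate 11 and did not pass in any of these fits.

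Around Igf2, its chromosomal neighbors did not share one direction. H19, the noncoding RNA made from the maternal allele and regulated by the same imprinting control region, differed by -0.02 (standard error 0.09, limma adjusted p = 0.861), from a mean of 10.61 on pelleted chow. The antisense transcript Igf2os, named after its values were seen, differed by -0.03 (limma adjusted p = 0.79). Mir483, a microRNA gene within Igf2, yields the mature sequences below, from RefSeq (GRCm38.p6, chromosome 7, minus strand), shown because its probe set reads the same locus, with the seed, bases 2 to 8, in capitals.
mmu-miR-483-5p: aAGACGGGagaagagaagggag
mmu-miR-483-3p: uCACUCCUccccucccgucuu
The seeds of the 2 arms differ. The Mir483 probe set had 8.32 to 8.61 on pelleted chow and 8.04 to 8.79 on powdered chow, where replicate 108 was the highest of all 10 arrays and the other 4 lay at or below 8.28. Its difference of -0.19 did not pass (standard error 0.13, limma adjusted p = 0.253). Cdkn1c, an imprinted inhibitor of cyclin-dependent kinases farther along the same cluster, rose by 0.92 (standard error 0.07, limma adjusted p = 6.6e-07). Of 9 measured imprinted neighbors of Igf2 and Igf2r, 2 rose and 2 fell. These shares are near those of all probe sets, of which 21.2% rose and 21.8% fell. The number of neighbors that fell was 1 to 4 with 1 array left out. Phlda2, in the Cdkn1c part of the cluster, fell by 0.19, a call lost without pelleted chow replicate 15 or powdered chow replicate 87 or 115 (adjusted p up to 0.0607). Near Igf2r, the antisense noncoding RNA Airn rose by 0.23 and the organic cation transporter gene Slc22a3 fell by 0.29.

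Forebrain RNA is a mixture, and fewer cells of a type cannot be told apart from less RNA per cell. Markers of the cells known to make Igf2 were therefore summarized by their mean log2 value per array. The 10 choroid plexus markers had means of 8.08 to 8.17 on pelleted chow and 7.95 to 8.04 on powdered chow, with 1 higher and 5 lower. Among them Sostdc1 and Aqp1 fell by 0.50 and 0.30, while Ttr, the most characteristic product of the choroid plexus, differed by 0.15 (limma adjusted p = 0.0705, and 0.01 to 0.217 over 8 other settings). The 10 endothelial markers had means of 8.44 to 8.55 and 8.28 to 8.38, with 3 higher and 3 lower (median -0.03), among them Kdr at 0.68 and Ly6c1 at -1.20, a gene whose probes may also read its near copy Ly6c2. Without Ly6c1, a choice made after seeing the data, the endothelial means were 8.53 to 8.61 and 8.47 to 8.58 and overlapped. The 10 meningeal fibroblast markers had means of 8.68 to 8.96 and 8.87 to 9.04, with 5 higher and 2 lower, among them Col3a1 at 0.75 and Slc6a13 at -0.62. The 10 pericyte markers had means of 8.56 to 8.70 and 8.50 to 8.65, with 3 higher and 3 lower. The choroid plexus means thus lay lower on powdered chow without overlap, but the ranges were close, at 8.04 and 8.08. The endothelial means also lay lower without overlap, but not once Ly6c1 was left out, and the meningeal and pericyte means overlapped. Of the 9 endothelial markers left, 3 rose and 2 fell, Esam by 0.87 and Emcn by 0.49. Neither of these was left out in turn, and no other list was recomputed without a gene. The lists were thus not checked alike. With 1 array left out, 3 to 5 choroid plexus markers were lower, and the Otx2 and Msx1 calls were each lost in 4 of 10 such fits. Over all probe sets 21.2% rose and 21.8% fell. The values carry no detection calls, so that no marker can be called absent, and the part of these cells in the Igf2 difference was not tested.

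Both tyrosine kinase receptors rose, Igf1r by more than Insr. Igf1r (chr7:67952257-68233668), which transmits the IGF1 and IGF2 signals, had log2 values of 10.68, 10.59, 10.59, 10.72 and 10.57 on pelleted chow. On powdered chow it had 10.93, 10.97, 10.97, 11.05 and 11.06. The diets were well separated, and the SD was 0.06 in each. The difference was 0.37, or 1.29-fold higher (standard error 0.05, limma adjusted p = 9.92e-05). Insr, the insulin receptor gene (chr8:3150922-3279649), had 10.15, 10.00, 10.01, 9.99 and 10.05 on pelleted chow and 10.17, 10.16, 10.25, 10.26 and 10.35 on powdered chow. Here the ranges only just cleared each other, at 10.15 in pelleted chow replicate 05 and 10.16 in powdered chow replicate 88. The difference was 0.20, or 1.15-fold (standard error 0.06, limma adjusted p = 0.0125). Igf2r (chr17:12682406-12769706), the clearance receptor, had 9.29, 9.34, 9.23, 9.25 and 9.27 on pelleted chow and 9.40, 9.35, 9.44, 9.27 and 9.46 on powdered chow. Only powdered chow replicate 111 lay within the pelleted chow range. It differed by 0.11, with a 95% interval of -0.01 to 0.22 (limma adjusted p = 0.126).

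The receptor substrates did not pass the test. Irs1 (chr1:82233105-82291439) had 9.39, 9.51, 9.55, 9.84 and 9.54 on pelleted chow and 9.65, 9.64, 9.62, 9.49 and 9.49 on powdered chow. All 5 powdered chow values fell within the span of the pelleted chow values, which replicates 05 and 11 set. The difference was 0.01, with a 95% interval of -0.15 to 0.18 (limma adjusted p = 0.901). Irs2 (chr8:10984681-11008929) is the substrate that in the mouse brain is known for its part in brain growth. It had 8.43, 8.58, 8.61, 8.93 and 8.62 on pelleted chow and 8.58, 8.63, 8.39, 8.42 and 8.39 on powdered chow, a difference of -0.15 with a 95% interval of -0.34 to 0.04 (limma adjusted p = 0.182). Replicates 05 and 11 again marked the ends of the pelleted chow values.

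Among the binding protein genes Igfbp2 and Igfbpl1 rose and Igfbp5 missed the threshold. Igfbp2 (chr1:72824480-72852474) encodes a secreted carrier of IGF1 and IGF2 that is abundant in the fetal brain and choroid plexus. Its log2 values were 9.64, 9.82, 9.81, 9.80 and 9.75 on pelleted chow. They were 10.47, 10.56, 10.38, 10.45 and 10.39 on powdered chow. The lowest powdered chow value stood well above the highest pelleted chow value, and the SD was 0.07 in each diet. The difference was 0.69, or 1.61-fold higher (standard error 0.06, 95% interval 0.57 to 0.81, limma adjusted p = 8.55e-07), and it was the largest among the 10 genes.
Igfbp5 (chr1:72858065-72874865), the tail-to-tail neighbor of Igfbp2, encodes a protein that binds IGFs and the extracellular matrix. It had 9.78, 10.06, 9.94, 10.21 and 10.00 on pelleted chow and 9.76, 9.87, 9.92, 9.66 and 9.75 on powdered chow. The diets overlapped because pelleted chow replicate 05 lay among the powdered chow values. The difference of -0.21 (standard error 0.08, 95% interval -0.38 to -0.03) had a limma adjusted p = 0.0515. That call depends on the setting: the adjusted p ran from 0.0148 to 0.087 over 8 other ways of processing or testing, and from 0.0104 to 0.118 when 1 array was left out. Leaving out pelleted chow replicate 05 gave 0.0104, and leaving out replicate 108 of the powdered chow gave 0.0324.
Igfbpl1 (chr4:45809507-45826827), which encodes a relative of the IGF binding proteins, is known from newborn neurons of the developing mouse brain. It had 11.10, 10.94, 10.72, 10.62 and 10.82 on pelleted chow and 11.04, 11.08, 11.10, 11.21 and 11.16 on powdered chow. Pelleted chow replicate 05 reached the powdered chow range, and the other 4 lay below it. The difference was 0.28, or 1.21-fold higher (standard error 0.08, limma adjusted p = 0.0152). Markers of newborn and intermediate progenitor cells included 5 of 10 that rose and 1 that fell, where 21.2% of all probe sets rose and 21.8% fell. Their means were 8.40 to 8.67 on pelleted chow and 8.73 to 8.87 on powdered chow. Gadd45g and Neurog2 rose by 0.83 and 0.67. Btg2 fell by 0.19, a call lost in 5 of 10 fits with 1 array left out. Neurod1, Nhlh1 and Insm1 differed by -0.12, -0.07 and -0.04 and did not pass. Of 10 markers of more mature neurons, 3 rose and 2 fell, with means of 11.28 to 11.49 and 11.39 to 11.47. The part of these cells in the Igfbpl1 difference was not tested.

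**Figure D2:**
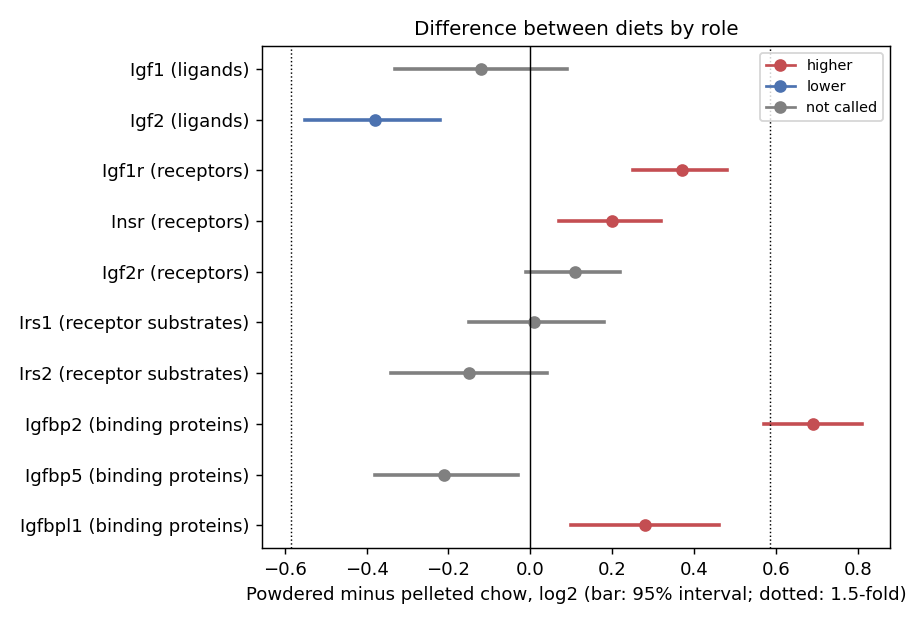
Difference between the diets for each gene, powdered minus pelleted chow on the log2 scale (horizontal axis), with its 95% interval from limma as a bar, colored by the call at an adjusted p under 0.05. Igfbp2 at 0.69 is the only gene past the dotted lines at a fold change of 1.5, and Igf2 at -0.38 is the only one called lower.

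Whether 2 genes of the same role changed unequally was tested within arrays, where a shift common to the whole array cancels. For each of 5 pairs the log2 value of one gene was subtracted from that of the other in every array, and the differences were compared between the diets by a two-sided exact permutation test over all assignments of the arrays to the diets, whose smallest p is 0.00794, with adjustment over the 5 pairs. Igfbp2 minus Igfbp5 changed by 0.89 (standard error 0.07, exact p = 0.00794, adjusted p = 0.0132), from -0.41 to -0.13 on pelleted chow to 0.46 to 0.79 on powdered chow, so that the neighbors on chromosome 1 moved apart in all 5 powdered chow-exposed embryos. Irs1 minus Irs2 changed by 0.17 (standard error 0.04, exact p = 0.00794, adjusted p = 0.0132), from 0.91 to 0.96 on pelleted chow to 1.01 to 1.23 on powdered chow, although neither substrate passed on its own. Both substrates deviated together from their diet means, which cancels in the subtraction and leaves a narrow span of 0.91 to 0.96. Igf1r minus Igf2r changed by 0.26 (standard error 0.06, exact p = 0.00794, adjusted p = 0.0132), also without overlap. Igf1r minus Insr changed by 0.17 (standard error 0.04, exact p = 0.0159, adjusted p = 0.0198) and Igf1 minus Igf2 by 0.26 (standard error 0.10, exact p = 0.0238, adjusted p = 0.0238), both with overlap between the diets. These tests show unequal change and say nothing of which gene is more abundant. Pairs that hold Igfbp2, Igf1r or Igf2 largely restate the change of a gene that passed alone. How often other gene pairs of the array change unequally was not counted.

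**Figure D3:**
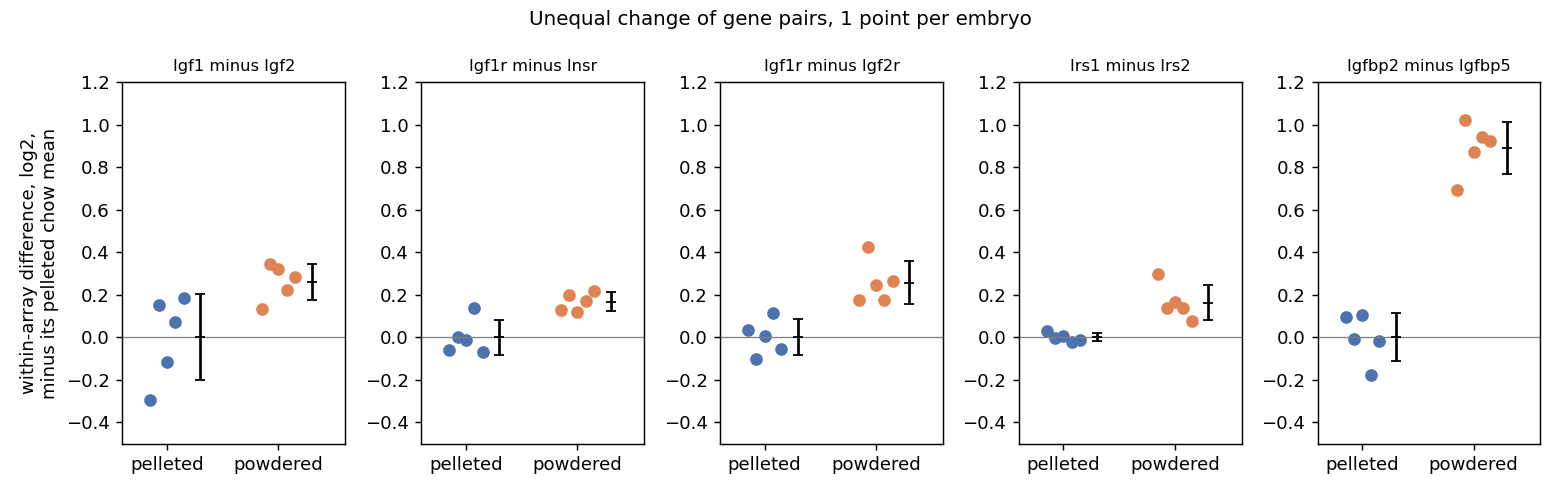
Within-array difference of the log2 values of each gene pair, minus its mean on pelleted chow (vertical axis), for embryos of dams on pelleted (blue) and powdered chow (orange), 1 point per embryo, with mean and SD of 5 embryos. Igfbp2 minus Igfbp5 is displaced by 0.89, and for Irs1 minus Irs2 the 5 pelleted chow points lie within a narrow band.

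Within a diet the genes varied together in a few embryos. Pelleted chow replicate 11 had the highest value of its diet for 6 of the 10 genes, Igf1, Igf2, Igf1r, Irs1, Irs2 and Igfbp5, where it was the highest for 24.8% of all probe sets. It was also the lowest of its diet for Insr and Igfbpl1. Pelleted chow replicate 05 was the lowest for 5 genes, Igf1, Irs1, Irs2, Igfbp2 and Igfbp5, against 27.3% of all probe sets, and the highest for Insr and Igfbpl1. In powdered chow, replicate 88 was the highest for 4 genes, against 13.0% of all probe sets. Powdered chow replicate 111 was the lowest for 4, against 26.8%. After each value was centered on its diet mean, Irs1 and Irs2 had a Pearson correlation of 0.93 over the 10 arrays, Igf1 and Igfbp5 one of 0.84, and Irs1 and Igfbpl1 one of -0.88. Insr and Igfbp2, which both rose with the diet, had a correlation of -0.87 within it. These are descriptions over arrays that share one normalization. The mean of 8 erythroid markers was 6.93 and 6.84 in pelleted chow replicates 05 and 07, 6.48, 6.50 and 6.46 in replicates 09, 11 and 15, and between 6.80 and 6.98 in the powdered chow-exposed embryos. Its part in the deviations was not tested.

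**Figure D4:**
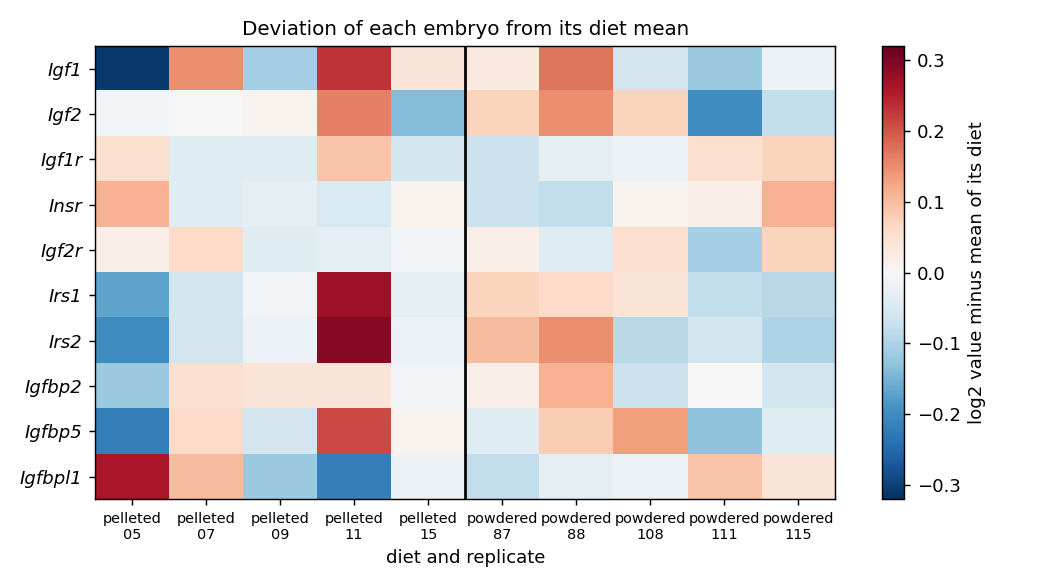
Deviation of each embryo's log2 value from the mean of its diet (color scale, red above and blue below), with genes in rows and the 5 pelleted and 5 powdered chow-exposed embryos in columns. Pelleted chow replicates 05 and 11 deviate in opposite directions for Igf1, Irs1, Irs2, Igfbp5 and Igfbpl1.

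Of the genes around the ligands, those of the IGF2 mRNA binding proteins rose together, while most others did not pass. Of 6 other genes, those of further binding proteins and of the acid-labile subunit Igfals, 0 rose and 1 fell (median -0.15). The number that fell depended on the setting, and was 1 to 3 over the other ways of processing or testing and 0 to 2 with 1 array left out, 0 without pelleted chow replicate 15 and 2 without pelleted chow replicate 05 or 07 or powdered chow replicate 88. Igfbp3, the main carrier in adult blood, fell by 0.18 (limma adjusted p = 0.0225), a call lost without pelleted chow replicate 15 or powdered chow replicate 108 (adjusted p up to 0.0631). Igfbp7, Igfals and Igfbp4 differed by -0.23, -0.22 and -0.12 and did not pass. Igfbp7 passed in 5 of 8 other settings (lowest adjusted p = 0.0323). Igfals passed with array quality weights and without powdered chow replicate 108 (limma adjusted p = 0.0469 and 0.00799). Without a detection call it cannot be said whether the dimmest of these 6 genes were expressed. The insulin genes Ins1 and Ins2 and the insulin receptor-related gene Insrr had means of 5.89, 6.96 and 6.88 on pelleted chow and did not pass, although Ins2 passed with array quality weights and without powdered chow replicate 108 (adjusted p = 0.0369 and 0.0139). Of the binding protein proteases and their inhibitors, the protease gene Pappa2 rose by 0.23, and Stc2, which encodes an inhibitor of PAPP-A, had a difference of -0.38 (limma adjusted p = 0.0299). The Stc2 call was lost in the methods' t-test (adjusted p = 0.0851) and in 6 of 10 fits with 1 array left out, those without pelleted chow replicate 09, 11 or 15 or without powdered chow replicate 87, 88 or 111 (adjusted p up to 0.0772). Pappa and Stc1 differed by -0.09 and 0.03 and did not pass.
All 3 genes of the IGF2 mRNA binding proteins rose. These cytoplasmic proteins bind Igf2 and other mRNAs and are typical of embryonic tissue. Igf2bp1 rose from 7.23 by 0.63 (standard error 0.06, limma adjusted p = 1.74e-06), Igf2bp2 from 8.48 by 0.58 (standard error 0.07, limma adjusted p = 2.47e-05) and Igf2bp3 from 8.44 by 0.66 (standard error 0.09, limma adjusted p = 5.59e-05). The mean of the 3 was 7.96 to 8.20 on pelleted chow and 8.64 to 8.72 on powdered chow. Igf2bp1 and Igf2bp3 were already known to be called on these arrays when the list was written, so their direction is not independent evidence.

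Inside the cell, genes of the signaling cascade went in both directions. Over all 8 lists of other pathway genes, 26 of 101 rose and 35 fell, with a median of -0.08. Of all probe sets 21.2% rose and 21.8% fell, with a median of -0.0243. The mean of the 101 genes was 9.07 to 9.15 per array, above the array medians of 7.82 to 7.86. With probe sets under the median left out, 66.7% of the rest were called. Of 24 receptor adaptors and negative regulators, 8 rose and 8 fell. With 1 array left out 8 to 9 rose and 7 to 8 fell, and Sh2b1 lost its lower call in 6 of 10 such fits. Grb10, an imprinted adaptor that restrains both tyrosine kinase receptors, rose by 0.55 (standard error 0.06, limma adjusted p = 6.66e-06), and Sos1, the exchange factor that activates RAS, rose by 0.54. The phosphatase gene Ptpn2 rose by 0.42 and the adaptor gene Shc2 fell by 0.38. In the PI3 kinase, AKT and FOXO list 7 of 21 genes rose and 6 fell (median -0.07). With 1 array left out 7 to 8 rose and 4 to 6 fell. The lower calls of Phlpp2 and Inpp5d were lost in 7 and 6 of 10 such fits. The catalytic subunit gene Pik3ca and the regulatory subunit gene Pik3r3 rose by 0.35 and 0.52. The kinases of glycogen synthase moved in opposite directions, Gsk3a by -0.65 (standard error 0.07, limma adjusted p = 6.74e-06) and Gsk3b by 0.36 (standard error 0.05, limma adjusted p = 0.000112). Outside the rule for naming genes, Akt2 and Foxo1 fell by 0.41 and 0.39, while Akt1 differed by -0.12 and did not pass (limma adjusted p = 0.0772, and 0.0158 to 0.0671 over 8 other settings).

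In the TSC and mTOR list 3 of 20 genes rose and 8 fell (median -0.07). In the RAS and MAP kinase list 4 of 20 rose and 11 fell (median -0.17). With 1 array left out 3 to 4 genes rose in each list, while 7 to 8 fell in the first and 8 to 10 in the second. Prr5, a subunit gene of mTOR complex 2, fell by 0.67 (standard error 0.08, limma adjusted p = 1.27e-05), and Mlst8, shared by both mTOR complexes, fell by 0.44. Eif4ebp2, a repressor of translation that mTOR inactivates, fell by 0.62, and the kinase gene Sgk1 by 0.35. Eif4ebp1, named after its values were seen, differed by -0.85 with a larger standard error of 0.22 (limma adjusted p = 0.0073). Mtor itself differed by 0.04 and did not pass. In the RAS and MAP kinase list, Mapk3, which encodes ERK1, fell by 0.75 (standard error 0.08, limma adjusted p = 5.03e-06), Hras by 0.48 and Araf by 0.39. Rps6ka3, a kinase gene downstream of ERK, rose by 0.38.

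**Figure D5:**
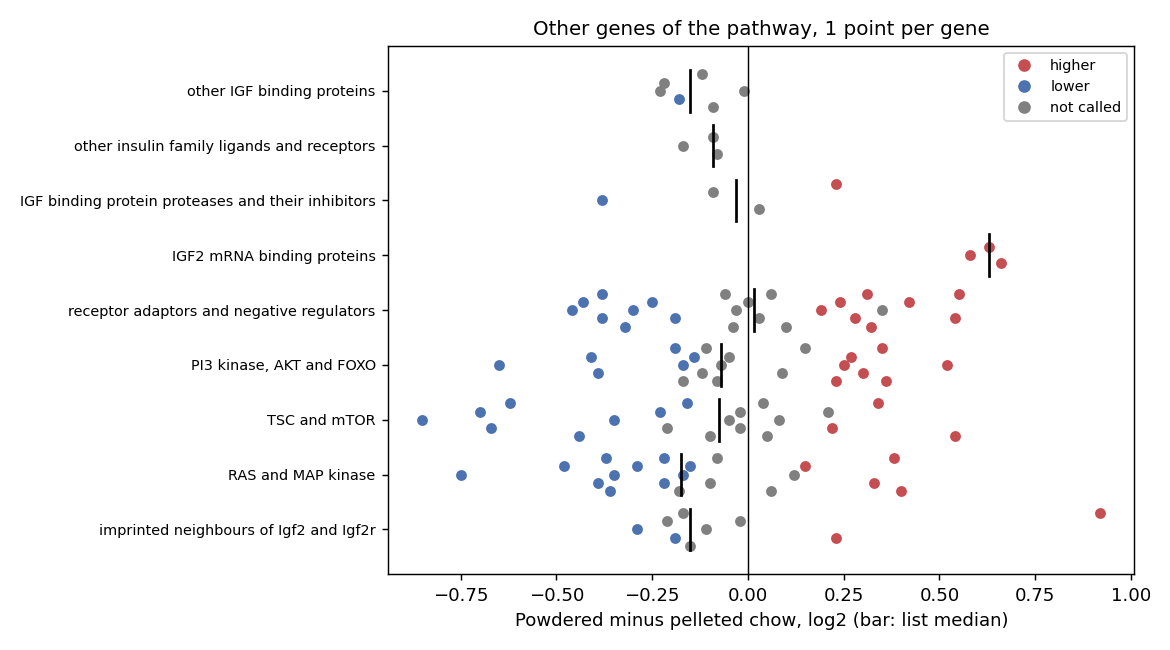
Powdered minus pelleted chow difference on the log2 scale (horizontal axis) of every measured gene of 9 lists, 1 point per gene, colored by the call at an adjusted p under 0.05, with the list median as a black bar. The 3 IGF2 mRNA binding protein genes lie between 0.58 and 0.66, and the lists of the intracellular cascade spread to both sides.

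The 10 arrays were alike in their overall distribution, with lower quartiles of 6.33 to 6.53 and a mean correlation with the other arrays of the diet of 0.992 to 0.995. Of 10 forebrain markers 5 rose and 0 fell, with means of 9.47 to 9.69 on pelleted chow and 9.74 to 9.88 on powdered chow, and of 10 midbrain and hindbrain markers 0 rose and 4 fell, with means of 6.68 to 6.97 and 6.54 to 6.78. Among the latter En1, a gene of the midbrain and anterior hindbrain, fell by 0.57 from a mean of 7.48 on pelleted chow. Gbx2, which is not confined to these regions, fell by 0.31 from 8.23. Both means lay above the lower quartiles. Of 11 radial glia markers 2 rose and 4 fell, of 10 microglia markers 2 rose and 5 fell, and of 8 erythroid markers 2 rose and 0 fell. Over all probe sets 21.2% rose and 21.8% fell. Some of these calls were not stable with 1 array left out. En2, a midbrain and hindbrain marker, lost its lower call in 6 of 10 such fits. The higher calls of C1qa (microglia) and Prom1 (radial glia) were each lost in 8 of 10. The part of the marked cells in the differences of the 10 genes was not tested. The labels give no sex, slide or scan date for the arrays, and the animals of the diets carry separate number ranges, so that diet and preparation cannot be told apart.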

How the data were processed

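Total RNA of 10 forebrains was hybridized to Affymetrix Mouse Gene 1.0 ST arrays, 5 for each diet named in the labels. The deposited log2 values were made by the authors by robust multichip averaging, which includes quantile normalization, with MBNI custom CDF version 15, so differences between arrays in total signal were removed before deposit. Depth does not apply to arrays, and their number limits the precision: the median standard error of a difference was 0.0723. There were 21225 probe sets, with 1 Entrez gene for each. Current symbols (GRCm38.p6), or else those of the platform, named 20768 of them.

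The diets were compared by limma 3.58.1 (R 4.3.3; lmFit and eBayes, no covariates) on all probe sets, with Benjamini-Hochberg adjustment over all of them. No filter was applied. The alternatives were the methods' t-test, array quality weights, a robust prior with an intensity trend, filters on dim probe sets, further normalizations and leaving out each array. Gene pairs were compared by exact permutation in scipy 1.17.1. Scripts were tested on simulated data.

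All 10 genes were named. In each pathway list the 4 genes with the lowest limma p were eligible to be named, in each marker list 2, and any further gene was picked after its values were seen. The members and lists were chosen with earlier results of these data known.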

Additional observations from a re-analysis of the deposited data

How the results depend on the processing

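Of the 10 genes, 9 kept their side of the adjusted p of 0.05 under all 8 other ways of processing or testing, and without any 1 array. The exception was Igfbp5, which passed with array quality weights (difference -0.20, adjusted p = 0.0148), an intensity trend with a robust prior (-0.21, 0.0349), both filters on dim probe sets (-0.21, 0.0355 and 0.0268), median centring (-0.21, 0.0394), cyclic loess normalization (-0.21, 0.0393) and quantile normalization (-0.22, 0.035), but not in the methods' t-test (-0.21, 0.087). With it the number of the 10 genes lower was 2 in place of 1 under these 7 settings. Leaving out 1 array gave Igfbp5 differences of -0.26 to -0.15 and 1 to 2 genes lower, 2 without pelleted chow replicate 05 or powdered chow replicate 108. The cause was not tested. The number higher stayed at 4 and the number past the methods' limits at 1 in every setting run. Irs1, not called in any of them, ran from -0.03 to 0.08 when 1 array was left out, so its sign is not settled. The 5 pair comparisons kept their direction and an adjusted exact p of 0.0476 or lower. Over the 101 pathway genes, 25 to 29 were higher and 28 to 41 lower. Counts of single lists changed by more than 1.5 times in 73 of 720 recomputed counts. Among them were the other binding proteins with Igfals (1 to 3 lower over the other settings, 0 to 2 with 1 array left out). Others were the proteases and inhibitors, whose only lower gene, Stc2, lost its call in 6 of 10 fits with 1 array left out. No paired analysis was possible because the diets share no replicate numbers. No detection calls were used, so it cannot be said whether dim genes such as Ins1 were above background.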

Other observations

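Genes whose values followed the 10 genes most closely within a diet were looked up across the 20768 named probe sets, as the highest Pearson correlations of values centered on the diet mean over 10 arrays. Igfbp2 was followed most closely by Ywhae, Rtn2 and Ly96 (0.97, 0.96 and 0.96), Igf2 by Dnaaf5, Wdr63 and A230083G16Rik (0.97, 0.96 and 0.95) and Igf1r by Tenm4, Kalrn and Fat4 (0.96, 0.94 and 0.94). For Igf1 they were Noc4l, Ankrd11 and Olfml2b (0.95, 0.94 and 0.93), for Igfbp5 Dnajc30, Slc13a3 and Cygb (0.97, 0.97 and 0.96) and for Igfbpl1 Mc4r, Kdm7a and Jmjd7 (0.98, 0.97 and 0.97). Irs1 was followed by Fblim1, Pacs1 and Pnkd (0.99, 0.99 and 0.98) and Irs2 by Gmppa, Mtf1 and Ctdnep1 (0.97 each). Insr was followed by Vmn2r1, Olfr493 and Mesp1 (0.96, 0.95 and 0.95) and Igf2r by Lipg, Olfr119 and Adamts12 (0.92, 0.92 and 0.91). The number of probe sets with a correlation above 0.9 was 291 for Irs1 and 150 for Irs2, against 6 for Igf2r and 18 for Igfbp2. These are the highest of many correlations over few arrays, which share one normalization, and they are given as a description.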
